A study of Homo sapiens with 2 samples.

Results

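The 10 genes described here are members of the BCL2 family, which sets whether a damaged cell survives or dies through its mitochondria. They were chosen by name: BCL2, BCL2L1, BCL2L2, MCL1 and BCL2A1 encode survival proteins, BAX and BAK1 encode the proteins that open the outer mitochondrial membrane, and BCL2L11, BBC3 and PMAIP1 encode BH3-only death inducers. Every peak of the transcription factor JUNB whose summit lay within 50 kb of the RefSeq span of 1 of these genes was taken, which gave 41 of 32550 untreated peaks and 25 of 25739 etoposide peaks on chromosomes 1 to 22 and X. The genes are 10 of the 19974 protein-coding genes annotated there.

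The peaks came from CUT&RUN, in which an antibody against JUNB guides a nuclease to chromatin and the DNA it cuts free is sequenced. The cells were of IMR-90, a fibroblast line from human lung. There was 1 library of untreated cells and 1 of cells treated with etoposide, an inhibitor of topoisomerase II that breaks DNA and brings fibroblasts into senescence. The dose and the time of treatment are not given in the sources used here, and no genetic change is named for either group. With 1 library per condition nothing could be set against a spread between cultures, so no test was run and all values describe these 2 libraries. Peak lists hold no expression, so the fibroblast identity of the cells and the output of these genes were not checked.

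JUNB is a subunit of AP-1, a dimeric factor of JUN and FOS family proteins that binds the sequence TGANTCA and responds to growth signals and stress. Survival proteins hold BAX and BAK1 in check by binding them and the BH3-only proteins. BH3-only proteins, several of them induced after DNA damage, free BAX and BAK1 to release cytochrome c and start the caspases. Senescent fibroblasts are known for their resistance to apoptosis, and senolytic drugs of the navitoclax type kill them by occupying BCL2, BCL-xL (from BCL2L1) and BCL-w (from BCL2L2).

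Of the 8 genes with an annotated start in the promoter table used here, only BBC3 had a JUNB summit within 1 kb of that start in both lists. BBC3 is the gene of PUMA, a BH3-only protein induced by DNA damage. Its promoter in the RefSeq sequences of GRCh38.p14 (300 bases, of which 250 come before the start) also held the only TGANTCA match among the 9 promoters found for 8 of the genes. The 150 promoter bases that lie inside the untreated peak are shown because they carry both, at chr19:47232768-47232917 on the minus strand, 5′ to 3′, with the AP-1 match in capitals:
BBC3: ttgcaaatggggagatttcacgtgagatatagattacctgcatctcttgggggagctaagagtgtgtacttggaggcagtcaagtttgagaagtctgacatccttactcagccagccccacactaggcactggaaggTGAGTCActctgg

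The match is bases 138 to 144 of this stretch. Its middle lay 116 bp from the untreated summit and 77 bp from the etoposide summit. It lay inside the untreated peak and outside the etoposide peak, which covered the first 120 bases of the stretch. The stretch takes in 150 of the 272 bases of the untreated peak and 120 of the 224 of the etoposide peak. The rest of each peak was not searched, so whether it holds a match is not known. The motif TGANTCA reads the same on both strands, and 2707 of 35116 promoter windows of coding and non-coding genes in the table (7.71%) held it, so a match alone is common. It was found in 13.8% of the 1228 windows that held an untreated summit, in 31.8% of the 424 that held an etoposide summit and in 28.7% of the 289 that held a shared untreated summit. The related site TGACGTCA was in 1.85% of all windows and in 0 of the 9 windows of these genes. A match describes letters and is not a measured binding site.

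A second promoter is shown for contrast because its peak was in the untreated list alone. BCL2A1 encodes BFL-1, a survival protein induced by NF-kappa-B. The promoter bases at chr15:79971167-79971446 on the minus strand, up to 30 bases after the start, follow with the 40 bases covered by the untreated peak in capitals:
BCL2A1: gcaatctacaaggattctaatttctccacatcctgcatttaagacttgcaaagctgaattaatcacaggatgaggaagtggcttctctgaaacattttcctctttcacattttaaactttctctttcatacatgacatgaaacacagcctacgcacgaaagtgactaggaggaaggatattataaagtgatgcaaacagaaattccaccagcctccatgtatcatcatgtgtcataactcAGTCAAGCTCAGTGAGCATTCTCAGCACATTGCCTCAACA

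This BCL2A1 window held no TGANTCA on either strand. The bases shown take in only 40 of the 232 bases of the untreated peak. Its summit lay 0.105 kb after the start, outside the window. Most of the peak was therefore not searched, and whether it holds a match is not known. No promoter sequence is shown for BCL2L1, where only 1 base of the untreated peak at the start lay in the same range. MCL1 and BCL2L2 were not matched in the promoter table and are placed by their gene span only.

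All 10 genes had an untreated peak within 50 kb, where 72% of all protein-coding genes did, and 9 had an etoposide peak, where 62.6% did. A peak found in both lists (at least 1 bp in common) lay near 8 of the genes, against 51.1% of all genes. Untreated peaks with no etoposide counterpart lay near 9 genes (59.7% of all genes), and etoposide peaks with no untreated counterpart lay near 6 (36.2% of all genes). The median gene of the family had 4 untreated and 2.5 etoposide peaks, and the median protein-coding gene had 2 and 1. Pooled over its windows, the family had 30.3 untreated and 18.4 etoposide peaks per Mb. The mean per Mb over the windows of all protein-coding genes was 14.2 and 10.03, and these measures may not be alike. The family was named with earlier results in view, and no list test was run.

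**Figure D1:**
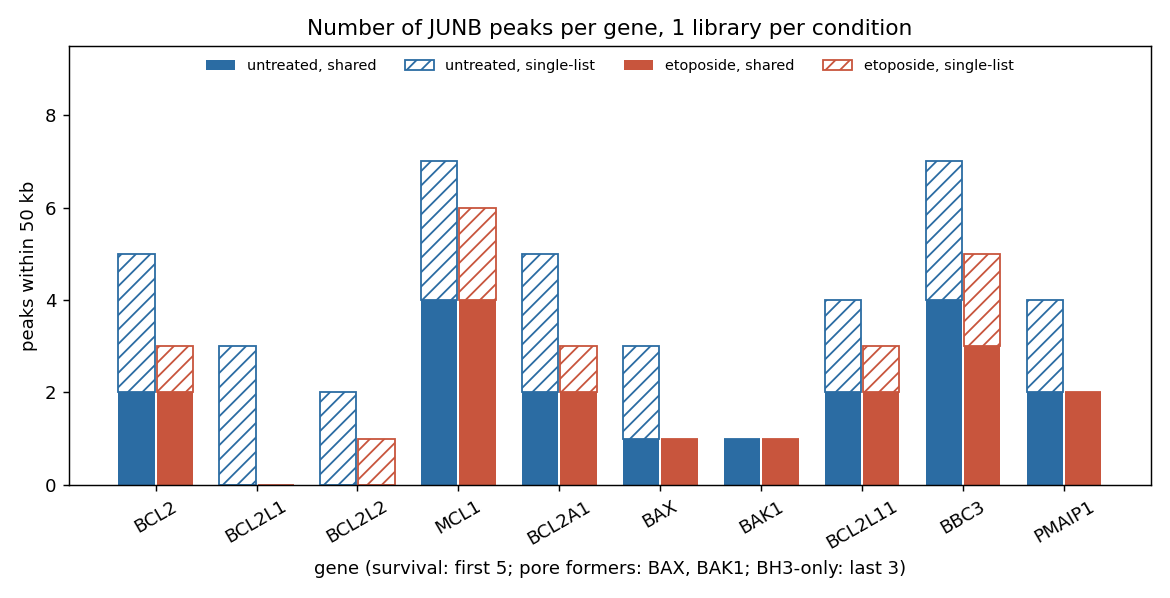
Number of JUNB peaks (vertical axis) within 50 kb of each gene (horizontal axis), with untreated bars in blue and etoposide bars in red. Filled parts are peaks found in both lists and hatched parts are peaks of 1 list, from 1 library per condition. MCL1 and BBC3 had the most, with 7 untreated peaks each, and BCL2L1 had 3 untreated peaks and no etoposide peak.

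Of the 41 untreated peaks, 18 had an etoposide counterpart, 43.9% (95% Wilson interval 29.9% to 59.0%), where the whole list had 51%. Of the 25 etoposide peaks, 17 had an untreated counterpart, 68.0% (48.4% to 82.8%), where the whole list had 64.8%. Both shares are near the background of their list. By role, survival genes had 8 of 22 untreated peaks shared, pore formers 2 of 4 and BH3-only genes 8 of 15. Untreated peaks outnumbered etoposide peaks at 9 of the 10 genes and were equal in number at BAK1, and the untreated list was the longer one overall. Among the 27 further genes of mitochondrial apoptosis described below, 16 had more untreated peaks, 4 had more etoposide peaks and 7 had equal numbers. The share over all protein-coding genes was not worked out, so the 9 of 10 cannot be set apart from the length of the lists.

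Strength is given as fragments at the summit, the height of the pile of sequenced fragments that the deposited fold and p of a peak imply. It had a median of 15 over the untreated list and 13 over the etoposide list, and the etoposide library had about 0.836 times the depth of the untreated one if the lowest background and the smallest width of each list are read as coverage and fragment length. Intervals of such counts are exact 95% Poisson intervals. All intervals cover counting error only, and a summit is the highest point of its peak, so they are a lower limit to the error.

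**Figure D2:**
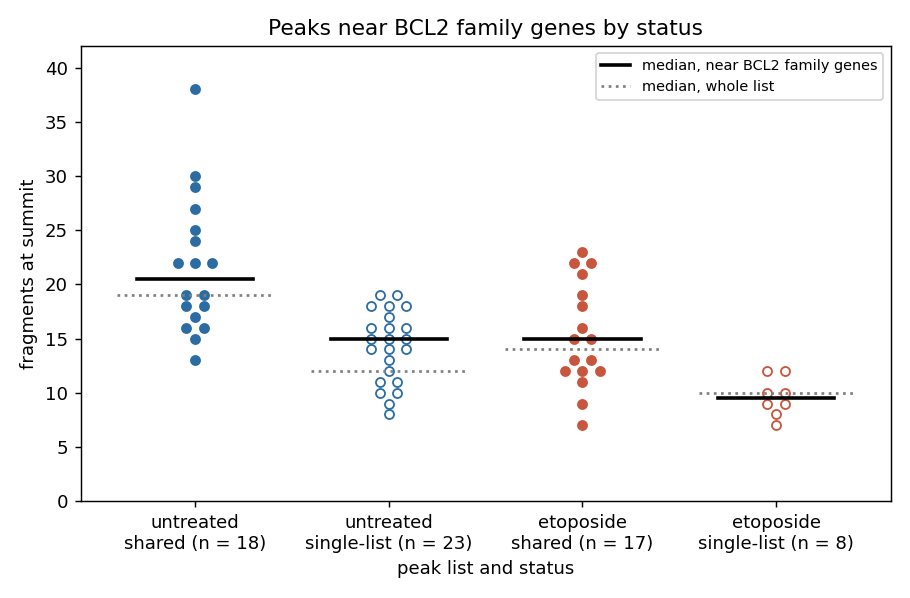
Fragments at the summit (vertical axis) of each peak near a BCL2 family gene, by list and by whether the peak had a counterpart (horizontal axis). Black bars are the medians of the points shown and dotted lines the medians of all such peaks in the list. Shared untreated peaks ran from 13 to 38 fragments and untreated-only peaks from 8 to 19.

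Shared untreated peaks of the family had a median of 20.5 fragments and untreated-only peaks 15, so the shared ones were the stronger part although the ranges met between 13 and 19. In the whole untreated list these medians were 19 and 12. Shared etoposide peaks had a median of 15 fragments (7 to 23) and etoposide-only peaks 9.5 (7 to 12). In the whole etoposide list these medians were 14 and 10. No etoposide-only peak near these genes had more than 12 fragments.

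**Figure D3:**
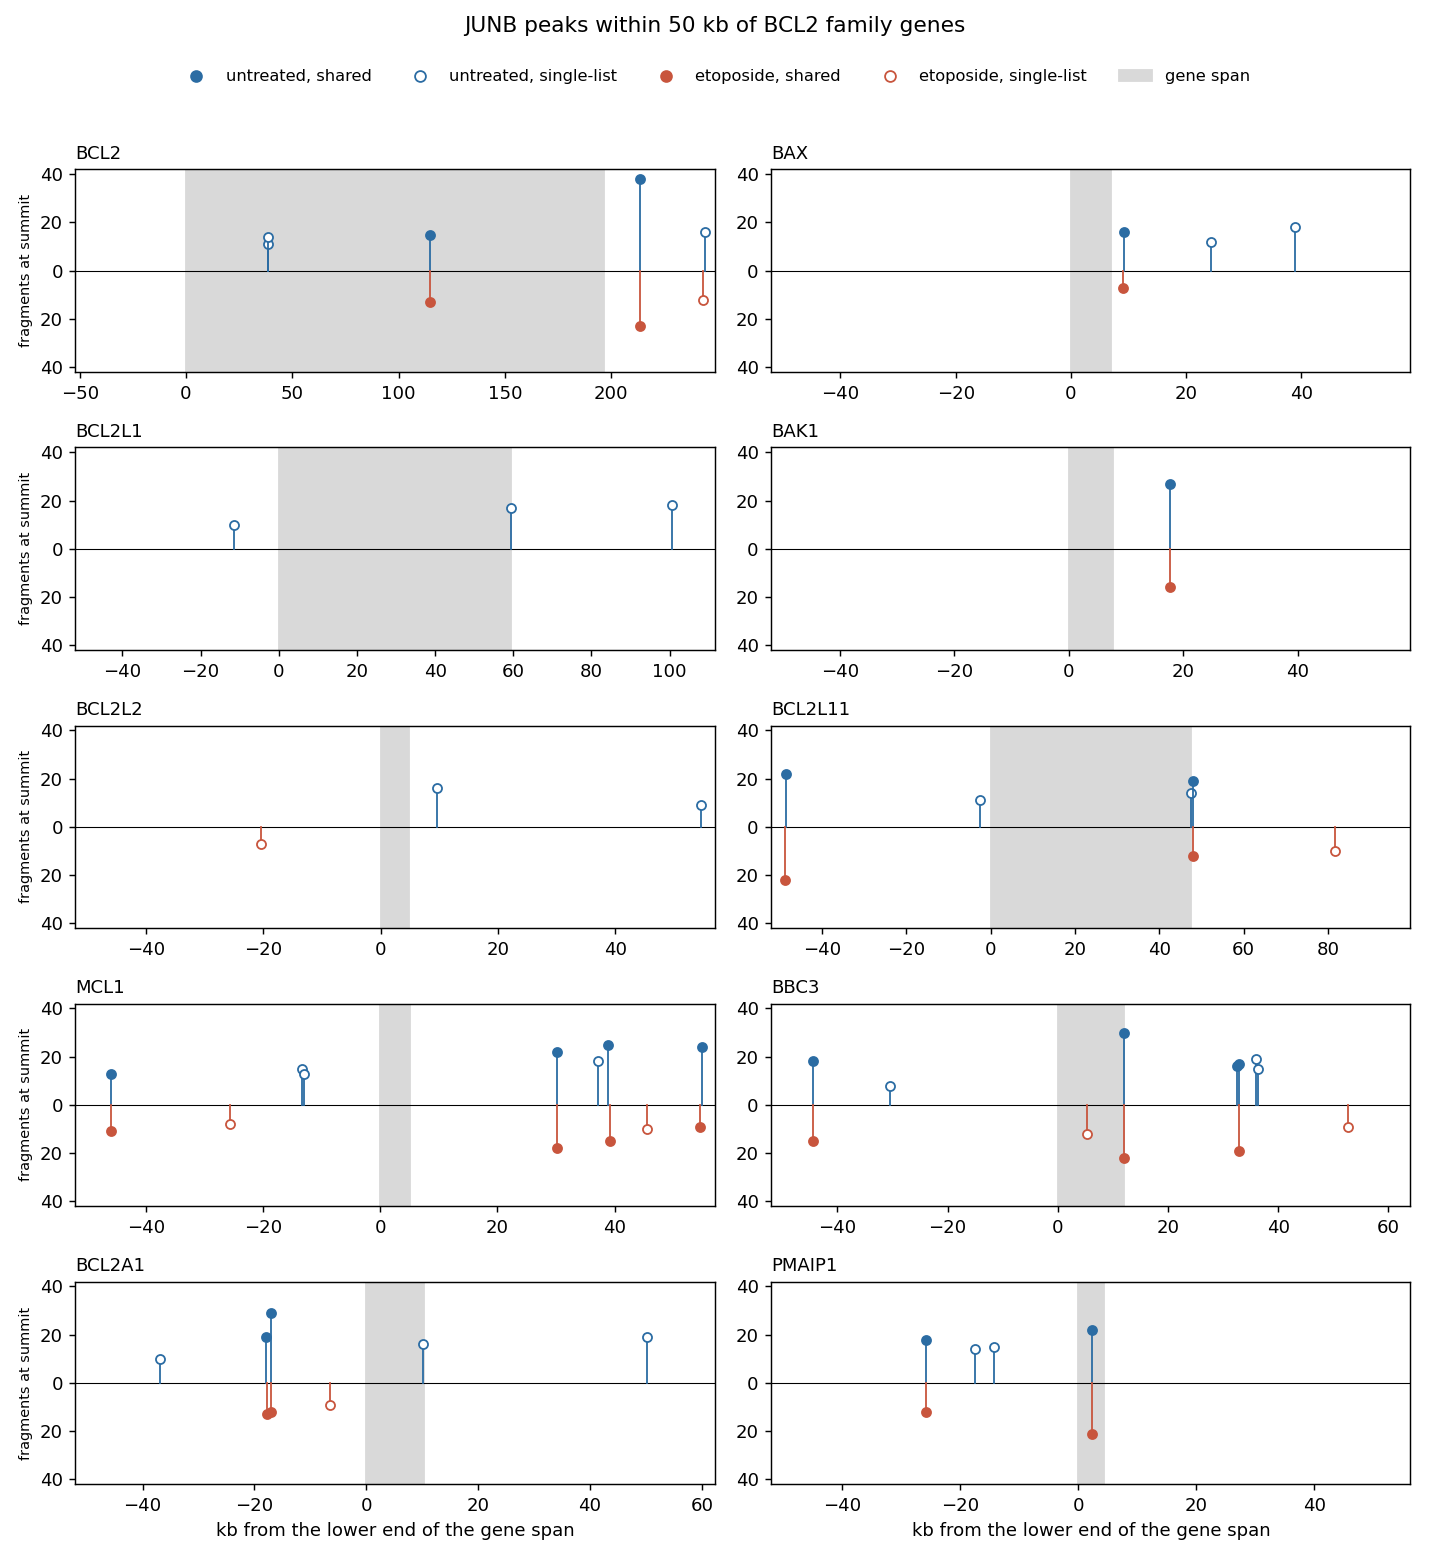
Position of every JUNB peak around each gene, in kb from the lower end of the gene span (horizontal axis, in chromosome direction), with the gene span in grey. Vertical lines give fragments at the summit, upward for untreated and downward for etoposide, with filled circles for shared and open circles for single-list peaks. The highest point is the untreated peak of 38 fragments beside BCL2, and BCL2L1 has open untreated circles only.

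Among the survival genes, the strongest peak was beside BCL2, the founding member of the family. BCL2 spans 196.7 kb on chromosome 18 (63123346 to 63320090, minus strand). A shared peak lay 17.02 kb before its start at 63336627 to 63336929, inside the neighbouring gene KDSR, a sphingolipid enzyme. It had 38 fragments in the untreated library (26.9 to 52.2, rank 550 of 32550) and 23 in the etoposide library (14.6 to 34.5, rank 1243 of 25739). This was the strongest peak of the family in either list, and its intervals in the libraries overlapped.

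Inside BCL2 there was 1 shared peak, 81.6 kb after the start, with 15 untreated and 13 etoposide fragments. A pair of untreated-only peaks lay deeper in the gene, 157.7 and 158.1 kb after the start, with 14 and 11 fragments. At the other end of KDSR, an untreated-only peak of 16 fragments and an etoposide-only peak of 12 had summits 918 bp apart and no base in common. They count as single-list peaks by the overlap rule although they lie close together.

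BCL2L1, which encodes BCL-xL, had no etoposide peak within 50 kb. An untreated-only peak lay 0.110 kb after its start, on chromosome 20 at 31723723 to 31723934, with 17 fragments (interval 9.90 to 27.2, rank 11976). The others were 18 fragments inside TPX2, a spindle gene, 41.04 kb before the start, and 10 fragments nearest to COX4I2, 11.4 kb past the far end. Within 50 kb, BCL2L1 was thus the only gene of the family whose peaks were all of the untreated list. This depends on the window, since all 10 genes had an etoposide peak within 100 kb. The share of all protein-coding genes with untreated peaks alone was not worked out.

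BCL2L2, which encodes BCL-w, had 2 untreated-only peaks and 1 etoposide-only peak, none shared. The untreated peak of 16 fragments lay 4.64 kb beyond the gene, on chromosome 14 at 23316259 to 23316485, inside the read-through gene BCL2L2-PABPN1. The other untreated peak had 9 fragments and lay inside EFS. The etoposide peak had 7 fragments and lay 20.4 kb on the other side, nearest to HOMEZ.

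MCL1, a survival protein with a short half-life, had 7 untreated and 6 etoposide peaks, and none had MCL1 as its nearest protein-coding gene. The closest summit lay 12.9 kb from the gene. On the side toward ENSA, chromosome 1, a shared peak 25.1 kb away at 150604633 to 150604882 had 22 untreated and 18 etoposide fragments. The next, 33.9 kb away, had 25 and 15, with summits 289 bp apart. At the edge of the window, inside ENSA, a shared peak had 24 untreated fragments (15.4 to 35.7) and 9 etoposide fragments (4.12 to 17.1), a ratio of 0.375, the lowest of the family. These summits were 296 bp apart, and the etoposide summit lay outside the untreated peak. The ratio therefore compares heights at different places. A shared peak on the other side, 46.0 kb away inside the long non-coding RNA gene FALEC, had 13 and 11 fragments. The single-list peaks were 3 untreated ones of 13 to 18 fragments, of which a neighbouring pair lay inside ADAMTSL4-AS1, and 2 etoposide ones of 8 and 10.

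BCL2A1 had an untreated-only peak 0.105 kb after its start on chromosome 15, at 79970975 to 79971206, with 16 fragments (9.15 to 26.0, rank 10785). The nearest etoposide summit was 16.6 kb away, an etoposide-only peak of 9 fragments past the end of the gene. A pair of shared peaks lay 17.1 and 18.0 kb past the end. The stronger, at 79943220 to 79943961, had 29 untreated fragments (19.4 to 41.6) and 12 etoposide fragments (6.20 to 21.0), and the weaker had 19 and 13. The remaining untreated-only peaks had 19 and 10 fragments.

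As a group, the 2 pore formers had the fewest peaks, 4 untreated and 2 etoposide. By gene, BAX had 3 untreated peaks, as many as BCL2L1, and BCL2L2 had 2. BAK1 had a single place, shared, on chromosome 6 at 33589851 to 33590358, 9.95 kb before its start and inside the non-coding gene LINC00336. It had 27 untreated fragments (17.8 to 39.3, rank 2578) and 16 etoposide fragments (9.15 to 26.0, rank 3173), with summits 5 bp apart. The nearest other summit of the untreated list was 82.7 kb away.

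BAX, a pore former of the cytosol that moves to mitochondria, had no peak within 1 kb of its span on chromosome 19 (48954875 to 48961798). A shared peak 2.34 kb past its end, nearest to the ferritin gene FTL, had 16 untreated and 7 etoposide fragments, the fewest of any etoposide peak that was shared here. Its summits in the libraries were 313 bp apart. Untreated-only peaks of 12 and 18 fragments lay inside GYS1 and RUVBL2.

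As a group, the 3 BH3-only genes had the densest peaks, with 41.2 untreated and 27.5 etoposide peaks per Mb of window. Survival genes had 28.3 and 16.7, with the 296.7 kb window of BCL2 included. The ranking did not hold gene by gene. The survival gene MCL1 had 7 untreated peaks in a window of 105.1 kb, and BBC3 had 7 in 112.0 kb. At BBC3 the promoter peak shown above, on chromosome 19 at 47232768 to 47233039, had 30 untreated fragments (20.2 to 42.8, rank 2370) and its counterpart at 47232798 to 47233021 had 22 (13.8 to 33.3, rank 2144). The untreated summit lay 0.226 kb and the etoposide summit 0.187 kb before the annotated start. The intervals overlapped, which is no test of a difference, and the counts are not scaled for depth.

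Other peaks near BBC3 lay on both sides. A shared peak inside SAE1, 44.4 kb past the end, had 18 untreated and 15 etoposide fragments. About 21 kb before the start, 1 etoposide peak of 19 fragments spanned 521 bp and covered the places of 2 untreated peaks of 16 and 17 fragments. Inside the gene, 6.60 kb after the start, there was an etoposide-only peak of 12 fragments, the only single-list etoposide peak within any of the 10 gene spans. A further 3 untreated-only peaks of 8 to 19 fragments and 1 etoposide-only peak of 9 lay inside SAE1 or CCDC9.

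PMAIP1, which encodes NOXA, an antagonist of MCL1 induced by DNA damage, had a shared peak inside the gene, 2.39 kb after its start on chromosome 18. It was at 59902059 to 59902478 in the untreated list with 22 fragments (13.8 to 33.3) and at 59902284 to 59902472 in the etoposide list with 21 (13.0 to 32.1). These summits were 6 bp apart. A shared peak 25.8 kb before the start had 18 and 12 fragments, with summits 2 bp apart. The untreated-only peaks between them had 14 and 15 fragments.

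BCL2L11 encodes BIM, a BH3-only protein regulated by FOXO factors and by MAP kinase signalling. Its peaks near a boundary were at the end of the gene, on chromosome 2. A shared peak 0.411 kb past the end, at 111168685 to 111169057, had 19 untreated and 12 etoposide fragments, and an untreated-only peak of 14 fragments lay at the end itself, 0.013 kb away. A shared peak 48.6 kb before the start, inside ACOXL, had 22 fragments in each library (13.8 to 33.3) and ranked 4638 and 1594. An untreated-only peak of 11 fragments lay 2.62 kb before the start, and an etoposide-only peak of 10 lay inside the non-coding gene MIR4435-2HG.

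Near gene boundaries (within 1 kb of either end) there were untreated peaks at 4 of the 10 genes, BCL2L1, BCL2A1, BCL2L11 and BBC3 (40%, Wilson interval 16.8% to 68.7%), where 16.6% of all genes had one. Etoposide peaks were there at 2, BCL2L11 and BBC3 (20%, 5.67% to 51.0%), where 6.87% of all genes had one. Of the 8 genes with an annotated start in the promoter table, 3 had an untreated summit within 1 kb of it (37.5%, Wilson interval 13.7% to 69.4%, all genes 17.5%) and 1 an etoposide summit (12.5%, 2.24% to 47.1%, all genes 6.61%). Genes with a start bound in the untreated list and not in the etoposide list, as BCL2L1 and BCL2A1 were, made up 12.3% of all genes with a start. Genes bound there in both lists, as BBC3 was, made up 5.15%. With so few genes the intervals are wide. Those for annotated starts and for etoposide boundary peaks take in the shares of all genes. The interval for untreated boundary peaks starts at 16.8%, just above the 16.6% of all genes. The genes were named with earlier results of these data known, so this is no test of the family.

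**Figure D4:**
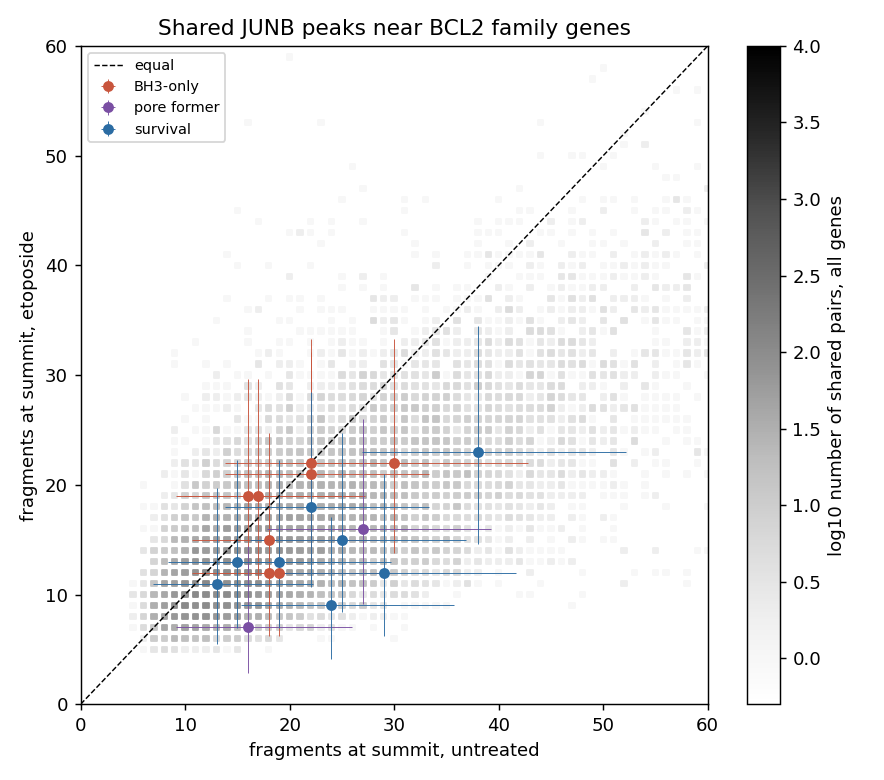
Fragments at the summit in the untreated (horizontal axis) and etoposide library (vertical axis) for the 18 pairs of overlapping peaks near BCL2 family genes, coloured by role, with exact 95% Poisson intervals. Grey squares are all shared pairs of up to 60 fragments in each library, darker where there were more, and the dashed line marks equal values. Most points lie below the line, as do most grey squares.

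Across the 18 pairs of overlapping peaks, 15 had fewer fragments in the etoposide library, 1 had as many and 2 had more. Over all 17119 shared pairs 74% had fewer, so the direction of the family was that of the lists. The median ratio of etoposide to untreated fragments was 0.709 for the family and 0.769 for all pairs (quartiles 0.614 and 1). The 2 pairs with more were the untreated peaks before BBC3 that faced the same etoposide peak. In 0 of the 18 pairs did the intervals of the libraries lie apart, a description of counting error and not a test. Summits of a pair were a median of 42.5 bp apart, against 42 bp over all pairs, and up to 373 bp.

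Some untreated peaks near the family came in close pairs. Of the 41 untreated peaks, 10 had another untreated summit within 500 bp (24.4%, Wilson interval 13.8% to 39.3%), where 13.7% of the whole untreated list did. They formed 5 pairs, inside BCL2 (402 bp apart), beside MCL1 (361 bp), at the end of BCL2L11 (398 bp) and before BBC3 (327 and 369 bp). Of the 25 etoposide peaks, 0 had such a neighbour, which allows a share of up to 12%, where the whole etoposide list had 8.47%. At the BBC3 pair 327 bp apart, 1 wide etoposide peak covered both places, and in the other 4 pairs at least 1 peak had no counterpart. The spacing was noticed in the data and the distance of 500 bp was chosen afterwards. The Wilson interval treats the 41 peaks as independent. A close neighbour counts for each peak of a pair, so the 10 peaks stand for only 5 pairs. The interval is therefore too narrow. Its lower limit of 13.8% does not set the family apart from the 13.7% of the whole untreated list. The etoposide limit of 12% makes the same assumption.

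Many of these peaks sit in or beside other genes. A member was the nearest protein-coding gene for 16 of the 41 untreated and 10 of the 25 etoposide peaks, and 6 and 4 summits lay inside a member's span. A peak's distance does not say which gene it acts on. At the edge of the window, the outermost peaks taken were those of MCL1 (49.83 kb, 24 untreated fragments) and BCL2L2 (49.65 kb, 9 untreated fragments). The first left out was an untreated-only peak of 30 fragments 50.58 kb from PMAIP1, followed by a shared peak near BBC3 at 56.84 kb, with 35 untreated and 12 etoposide fragments.

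A list of 27 further genes of mitochondrial apoptosis was described in the same way. An untreated peak within 50 kb was present at 25 of them (92.6%, all genes 72%) and an etoposide peak also at 25 (92.6%, all genes 62.6%). The medians were 2 and 1 per gene, the same as over all genes. Shared peaks lay near 22 (81.5%, all genes 51.1%). High shares of genes with a peak were thus not particular to the 10 family genes. Neighbouring genes of the further list can share peaks, as BIRC2 and BIRC3 did, so the 27 genes are not all separate places. Boundary peaks were present at 7 in the untreated list, among them BAD, BNIP3L, CASP9 and BIRC2, and at 4 in the etoposide list, among them BMF, BNIP3L and CASP9, against 16.6% and 6.87% of all genes.

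Of the boundary peaks named, those at CASP9 and BNIP3L were shared. At CASP9, the caspase activated by the apoptosome, the peak had 33 untreated and 19 etoposide fragments. At BNIP3L, a mitophagy receptor, it had 19 and 12. The peak of BIRC2, an inhibitor of apoptosis, had 21 fragments and was in the untreated list only. The genes with the most untreated peaks were FOXO3, a transcription factor that drives BCL2L11, with 9 untreated and 4 etoposide peaks, BCL2L10 with 6 and 4, and BAD, a BH3-only gene, with 6 and 2.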

How the data were processed

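Per the submitters' processing notes, Bowtie2 and MACS2 were used and the builds hg38 and mm10 were named, with no version or role. Chromosome and contig names are those of the human build. Settings, any control library and total reads are not given in the sources used here. Each library has 1 deposited peak list. The authors' columns hold a fold (ratio of summit signal to local background), the -log10 of p and of q there, and a score, which is 10 times -log10 q without decimals in 100% of peaks within 1 unit. These values are the authors' and describe peaks within their list.

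Positions count from 1. Fragments k and background b were solved from fold = (k + 1)/(b + 1) and the Poisson upper tail, which matched the deposited -log10 p within 0.001 in 100% of peaks, and the step was tested on simulated data. Ranks are by -log10 q. Gene spans and starts came from RefSeq GRCh38.p14 (Python 3.11.15, pandas 2.3.3, scipy 1.17.1). Chromosome 8 starts were not used here. The 10 genes, the further gene list and the named peaks (the strongest per gene and list, up to 3 shared per gene, and all within 1 kb of a boundary) were chosen with earlier results of these data known. Alternatives covered the window, list threshold, list length and overlap rule. Some genes of the further list are not reported here by name.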

Additional observations from a re-analysis of the deposited data

How the results depend on the processing

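Other windows, stricter or shorter lists and stricter overlap were tried. With summits within 10 kb of the genes there were 13 untreated peaks (6 shared) and 8 etoposide peaks (6 shared). Among the 10000 strongest peaks of each list there were 12 untreated (6 shared) and 9 etoposide (6 shared), and 5 genes had a shared peak. Requiring overlap of at least 50% of both peaks left 9 untreated and 9 etoposide peaks shared. Counting only peaks whose nearest protein-coding gene is a member, an alternative chosen after seeing the data, gave 16 untreated (8 shared) and 10 etoposide (8 shared). Each of these narrows the set by construction. The counts with a window of 100 kb, with -log10 q of at least 5 or with summits within 200 bp stayed within 1.5 times those reported, and untreated peaks outnumbered etoposide peaks under every window, list and nearest-gene alternative run. By percentile rank of -log10 q, 11 of the 18 shared pairs stood lower in the etoposide list, where 15 had fewer fragments. Leaving out a replicate was not possible with 1 library per condition, and no test could be run. Peaks of 7 to 12 fragments are near the lower end of the lists, where absence from a list does not show absence of binding.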
